A study of Saccharomyces cerevisiae with 2 samples.

Results

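The ratio of nucleosomal to genomic DNA was followed at 10 budding yeast genes of carbon source use: SNF1, ADR1, CAT8, SUC2, JEN1, ADH2, FBP1, PCK1, ICL1 and MLS1. They were chosen by name, out of 5653 gene names with upstream or coding probes on the array. The rule of choice used no measured value, but earlier results of these data were known when it was made. Every nuclear probe annotated inside one of these genes, or upstream of it, was taken, and a probe between divergent genes counted when either neighbour was a member. This gave 121 probes, 47 upstream and 74 coding, of which 120 were kept. All 47 upstream probes were kept, and 1 coding probe of CAT8 was left out because its spot was flagged as non-uniform. The upstream regions of 6 members (SUC2, ADH2, ICL1, MLS1, CAT8 and SNF1) held 23 probes shared with a divergent neighbour.

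The data came from 2 arrays, replicate 1 and replicate 2, which form a single group of Saccharomyces cerevisiae cells arrested in G1 with alpha factor, a mating pheromone. By the labels, Cy5 carried nucleosomal DNA, the part of chromatin that survives micrococcal nuclease (MNase), and Cy3 carried genomic DNA of sonicated chromatin. Strain, genotype, growth medium and carbon source are not given in the sources used here. The arrays carry DNA signal only, with no RNA level, so they do not say whether the members were repressed or active. All values are log2 of Cy5 over Cy3 with the array median at 0, and a value above 0 means more Cy5 signal relative to Cy3 than at a typical probe. Mitochondrial DNA, which carries no histones, had medians of 4.50 and 4.54 (222 probes), so the sign was not read as more or fewer nucleosomes. The median spot gave 32997 (replicate 1) and 33242 (replicate 2) in raw Cy5, with 17885 and 16928 in raw Cy3. Across probes the arrays correlated with Pearson's r = 0.998. Nothing in the labels says that the arrays held DNA of separate cultures, so p-values rest on the spread of this pair alone. That spread may be technical, and the number of arrays limits the precision.

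When glucose is plentiful, budding yeast shuts off genes for other carbon sources. The repressor Mig1 recruits the corepressor Cyc8-Tup1 to their promoters, and the kinase Snf1 is held inactive. When glucose runs out, Snf1 becomes active, Mig1 leaves the nucleus, and the activators Adr1 and Cat8 switch on genes of ethanol, lactate and acetate use, the glyoxylate cycle and gluconeogenesis. The promoters of SUC2 and ADH2 are textbook cases in which positioned nucleosomes cover the start site in glucose and are remodelled on induction.

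SNF1 encodes the catalytic subunit of the kinase that relieves repression. Its 6 upstream probes all lay in the region shared with YDR476C. The probe on chromosome 4 at 1411926 to 1411985, about 498 bp from the start codon, read 3.19 and 3.39 on replicates 1 and 2. The probe nearest the start, about 201 bp away (chromosome 4, 1412223 to 1412282), read -0.66 and -0.64, and the other 4 had means between -0.55 and 0.48. A single probe thus stood far above a low upstream region. Raw Cy3 at that probe was 1541 and 1390, far below the Cy3 median, and the part of this dim channel in the ratio was not tested. Upstream the mean was 0.41 ± 0.031 and in coding sequence 0.14 ± 0.028 (SD, n = 2 arrays), a difference of 0.28 ± 0.059 (limma, Benjamini-Hochberg adjusted p = 0.000316). This was the smallest of the 10 members over whole upstream regions. Within 500 bp, however, the upstream mean was 1.32 and the difference 1.18, above those of ADR1, FBP1 and ADH2. These 2 values depend on the probe at 498 bp, just inside that window, while the placed start is uncertain by 171 bp. The last coding probe read 1.67 and 1.58, while the other 5 had means between -0.70 and 0.17. After normexp background correction the upstream mean was 0.0032 and no longer passed (limma, adjusted p = 0.987), the coding mean turned to -0.18, and the difference missed the threshold (0.18, adjusted p = 0.264), as it did after loess (0.073, adjusted p = 0.0813). Without saturated probes the coding mean was 0.31 and the difference 0.11.

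ADR1 encodes a zinc finger activator of ADH2 and of genes for glycerol and fatty acid use. Its 4 upstream probes read higher the farther they lay from the start. The nearest, 138 bp away (chromosome 4, 894857 to 894916), read -0.45 and -0.48, and the next, at 296 bp, read 0.040 and 0.0091 and did not differ from 0 (limma, adjusted p = 0.276). The probes at 588 bp and 1036 bp read 1.50 and 1.54, and 1.93 and 1.98. The upstream mean was 0.76 ± 0.0079, against -0.052 ± 0.00054 in coding sequence (SD, n = 2 arrays), a difference of 0.81 ± 0.0084 (limma, adjusted p = 9.22e-07). This sign depends on the distant probes: within 500 bp of the start the upstream mean was -0.22, and the difference -0.17. Across its 15 coding probes the means alternated between -0.63 and 0.73, with 5 above 0, 8 below and 2 not called.

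CAT8 encodes the zinc cluster activator of gluconeogenic genes. It was the only member whose nearest upstream probe was its highest. That probe, 96 bp from the start (chromosome 13, 831477 to 831536), read 2.95 and 2.94, lower bounds because its Cy5 was saturated on both arrays. High values also reached into the gene, where the first coding probe (chromosome 13, 831286 to 831345) averaged 1.98 ± 0.021 (SD, n = 2 arrays), higher than 99.4% of kept nuclear coding probes. The second coding probe dropped to -0.74 and -0.77. Upstream the 4 probes, all shared with GPI12, averaged 1.57 ± 0.012, and the 15 kept coding probes averaged 0.21 ± 0.0052 (SD, n = 2 arrays), a difference of 1.36 ± 0.017 (limma, adjusted p = 1.55e-07). Without the saturated probes the upstream mean was 1.12 and the difference 0.88. Within coding sequence the probes spanned a wider range (2.75) than those of 93.1% of the genes with 3 or more coding probes. Those genes were not matched to CAT8 on probe number, and a range can widen with more probes.

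SUC2 encodes invertase, the secreted enzyme that splits sucrose. Its 7 upstream probes reached 1642 bp from the start, and the 5 distant ones were shared in the array's annotation with NIT1. In the R64 gene order an open reading frame absent from the array's names, YIL163C, lies between SUC2 and NIT1. The ratio was highest at the probe 366 bp from the start (chromosome 9, 36861 to 36920), which read 3.77 and 3.84, higher than 97.6% of kept nuclear upstream probes. There the raw Cy3 brightness was 1200 and 1141, the lowest of any member, beside 23918 and 26079 in Cy5. The nearest probe, 204 bp away (chromosome 9, 37023 to 37082), read 1.80 and 1.83, and a further high probe 1091 bp away (chromosome 9, 36137 to 36193) read 1.58 on both arrays. Between these peaks the ratio came down to 0.28 and 0.31, and beyond them it lay below 0, at -0.58 and -0.61 at the farthest probe.

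The SUC2 upstream mean was 1.05 ± 0.0095, against -0.34 ± 0.012 in coding sequence (SD, n = 2 arrays), a difference of 1.39 ± 0.022 (limma, adjusted p = 1.55e-07). Of its 6 coding probes 5 lay below 0, and the ratio ended at -1.14 on both arrays at the last of them. The upstream level depends on the probes counted: with the 2 probes within 500 bp, which are also the 2 not shared with NIT1, it was 2.81.

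JEN1 encodes the lactate and pyruvate transporter of the plasma membrane. Its 6 upstream probes reached 1746 bp from the start. The probe 449 bp away (chromosome 11, 21723 to 21776) read 3.36 and 3.27, and the 4 beyond it had means between 0.43 and 1.39, so all 5 lay above 0. The nearest probe (chromosome 11, 22058 to 22117) was saturated in both channels on both arrays, so its ratio is neither a level nor a bound. The upstream mean was 1.08 ± 0.024 with that probe and 1.47 ± 0.015 without it (SD, n = 2 arrays). In coding sequence JEN1 was flat, with 6 probe means between -0.44 and 0.30 and an average of 0.00098 ± 0.0018 (SD, n = 2 arrays) that did not differ from 0 (limma, adjusted p = 0.934). The difference was 1.08 ± 0.026 (limma, adjusted p = 4.00e-07), and 1.47 without that probe.

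ADH2 encodes the alcohol dehydrogenase that oxidises ethanol to acetaldehyde. Over whole upstream regions it had the lowest mean of the 10 members, a rank that passed to SNF1 after normexp (0.0032, against 0.66 at ADH2) and to ADR1 within 500 bp (-0.22, against 0.20 at ADH2). Its 3 upstream probes, shared with UBP15, read 0.29 and 0.32 at 890 bp (chromosome 13, 874952 to 875011), 0.54 and 0.48 at 434 bp (874498 to 874554), and -0.13 and -0.087 at 247 bp (874309 to 874368). No upstream probe of ADH2 came near the peaks seen at SUC2, JEN1 or MLS1. Its upstream range of 0.62 was wider than that of 2.19% of the 1733 genes with 3 or more upstream probes. Those genes were not matched on probe number: 974 had 4 or more, and a range can widen with more probes. The upstream mean of 0.23 ± 0.0022 stood beside a coding mean of -0.53 ± 0.010 (SD, n = 2 arrays), a difference of 0.76 ± 0.012 (limma, adjusted p = 1.21e-06). All 3 coding probes were below 0, and the first of them was saturated in Cy5. The nearest upstream probe was dim in both channels, with raw Cy3 of 2899 and 2805, and after normexp it read 1.47 and the difference was 1.37. After loess the upstream mean was 0.037 and no longer passed (limma, adjusted p = 0.116), and the difference was 0.28.

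ADH1, the fermentative paralog of ADH2, stood higher upstream at 0.87 ± 0.0043, with a coding mean of -0.23 ± 0.0031 (SD, n = 2 arrays) and a difference of 1.11. Of its 7 upstream probes 1 was saturated in Cy5, and without it the upstream mean was 0.97. The 2 coding sequences are closely alike, and whether probes of either gene also bind DNA of the other was not tested.

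FBP1 encodes fructose-1,6-bisphosphatase, a regulated enzyme of gluconeogenesis. It had the highest coding mean of the members and, over whole upstream regions, the highest upstream mean. Its 4 upstream probes all lay above 0, and the farthest, 840 bp away (chromosome 12, 875491 to 875550), was the highest at 3.75 and 3.92. Raw Cy3 there was 1536 and 1477. The nearest probe (chromosome 12, 874808 to 874867) read only 0.14 and 0.11. In the R64 gene order a tRNA gene lies between FBP1 and SEC61. The coding mean was raised by the third of 4 probes, which read 1.54 and 1.53. The upstream mean was 1.97 ± 0.027, against 0.52 ± 0.0072 in coding sequence (SD, n = 2 arrays), a difference of 1.45 ± 0.035 (limma, adjusted p = 1.75e-07). Within 500 bp the upstream mean was 1.16, below that of MLS1 (1.88), and the difference was 0.63.

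PCK1 encodes phosphoenolpyruvate carboxykinase, the gluconeogenic enzyme that makes phosphoenolpyruvate from oxaloacetate. Its 3 upstream probes read 0.75 and 0.94 at 130 bp, 1.30 and 1.35 at 389 bp (chromosome 11, 630252 to 630310), and 0.12 and 0.099 at 558 bp. No upstream probe of PCK1 reached 2, and the nearest had the largest spread between arrays of all upstream member probes other than that of SNF1 at 498 bp. The coding probes ran from -0.91 at the second to 0.092 at the fifth, by the means of both arrays. The upstream mean was 0.76 ± 0.052, against -0.38 ± 0.020 in coding sequence (SD, n = 2 arrays), a difference of 1.14 ± 0.072 (limma, adjusted p = 1.21e-06). The farthest upstream probe was the dimmest member probe in Cy5 (3584 and 3930), and the upstream mean was 1.52 after normexp and 0.34 after loess.

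ICL1 encodes isocitrate lyase and MLS1 malate synthase, the enzymes particular to the glyoxylate cycle. ICL1 had the most upstream probes, 8, reaching 1927 bp from the start. They rose to 2.71 and 2.79 at 416 bp (chromosome 5, 287243 to 287301) and came back to 1.42 and 1.41 at 705 bp. The nearest probe read 0.19 and 0.18, and the 5 distant ones had means between -0.45 and 0.70. In the R64 gene order a tRNA gene lies between ICL1 and its divergent neighbour RRT13. A single peak in a long region near 0 gave an upstream mean of 0.54 ± 0.0014, or 1.47 within 500 bp. The coding mean of -0.013 ± 0.013 (SD, n = 2 arrays) did not differ from 0 (limma, adjusted p = 0.318), and the difference was 0.56 ± 0.015 (limma, adjusted p = 4.48e-06). Inside the gene the first 2 probes were above 0 and the next 3 below. After loess the upstream mean was 0.28 and the difference 0.14.

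MLS1 had the largest upstream minus coding difference of the 10 over whole upstream regions, 2.53 ± 0.017 (SD, n = 2 arrays; limma, adjusted p = 4.38e-08), but within 500 bp SUC2 exceeded it at 3.15. It rested on 2 upstream probes, both shared with DCP2. The probe 460 bp from the start (chromosome 14, 405729 to 405788) averaged 4.01 ± 0.022 (SD, n = 2 arrays), the highest value at any member, with raw Cy3 of 2404 and 2308. The nearest (chromosome 14, 405995 to 406054) read -0.25 and -0.24. All 6 coding probes were below 0, the lowest at -1.18 and -1.17, and the coding mean of -0.64 ± 0.0024 was the lowest of the members.

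**Figure D1:**
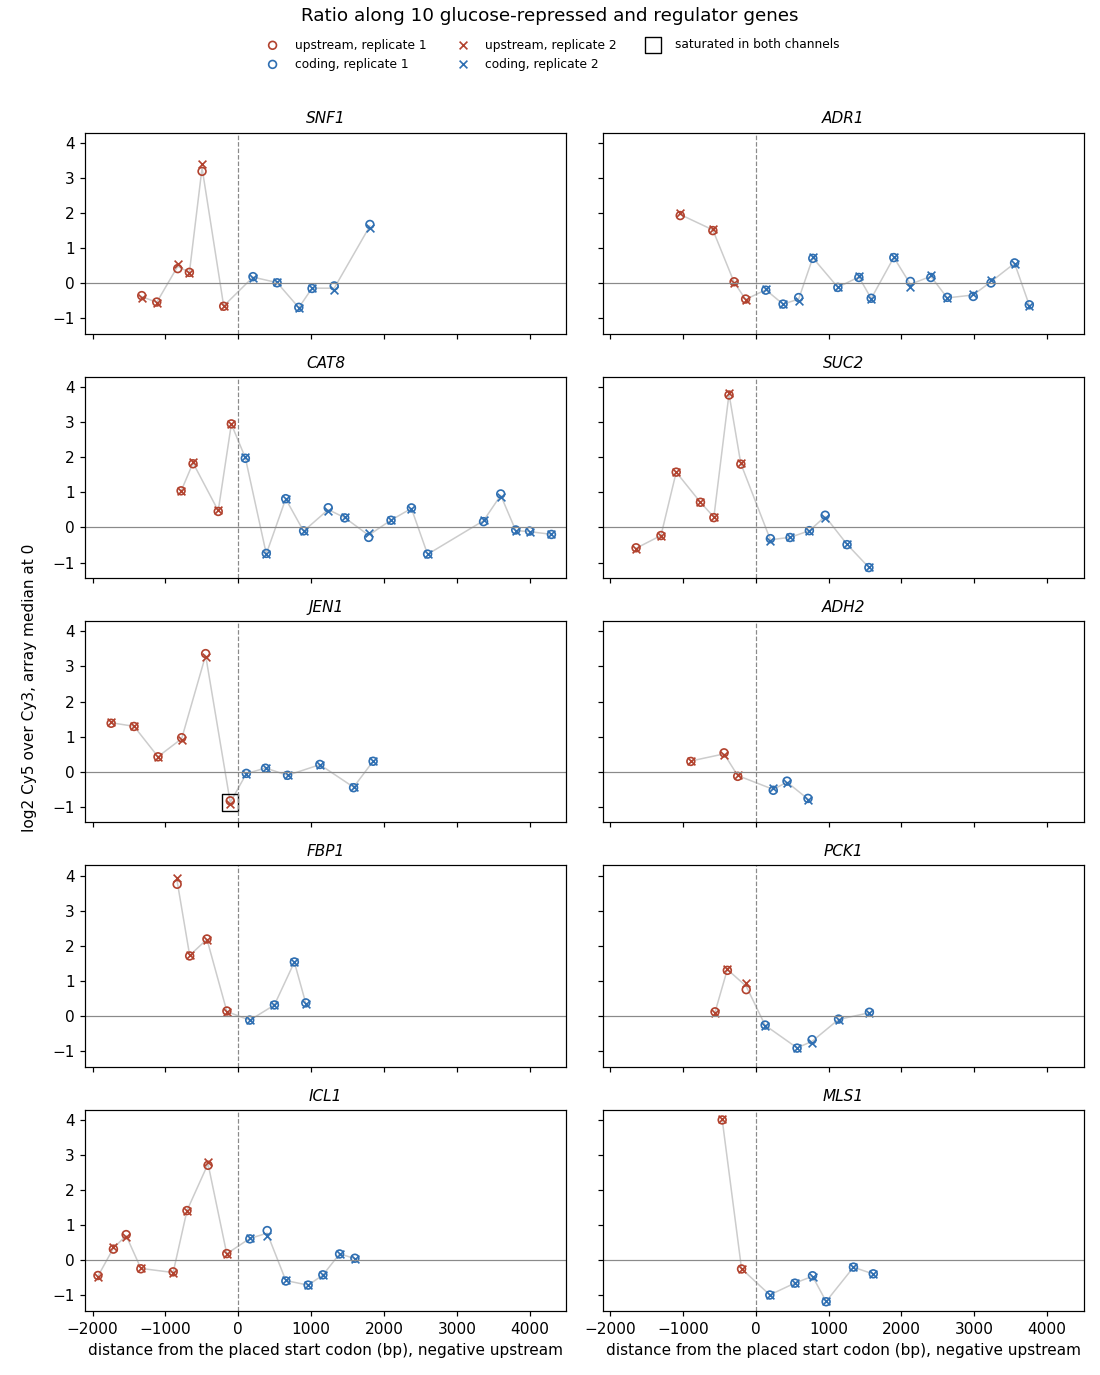
Log2 Cy5 over Cy3 of every kept probe (y axis) against its distance in bp from the placed start codon (x axis, negative upstream), 1 panel a gene, with circles for replicate 1, crosses for replicate 2, red for upstream and blue for coding probes, and a grey line through the means. The replicates lie almost on each other, and single upstream probes stand out at SNF1, SUC2, JEN1, ICL1 and MLS1, while ADH2 stays between -0.80 and 0.54.

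Over the 10 genes, 34 of 47 upstream probes (72.3%) passed above 0 and 12 (25.5%) below (limma, adjusted p under 0.05), next to 65.4% and 30.7% of 9168 nuclear upstream probes. Of 73 coding probes, 26 (35.6%) passed above and 43 (58.9%) below, next to 40.4% and 52.9% of 30056 coding probes. After normexp 15 coding probes of members passed above 0, and the share of all coding probes after normexp is not given here. The counts hold saturated probes, among them the nearest of JEN1, counted below 0. The median upstream probe stood at 0.51 in the members and 0.56 in all genes, and the median coding probe at -0.12 and -0.11. Upstream probes over 3 made up 10.6% of those of members (5 probes) and 8.42% of all. By these counts the members' probes were close to the rest of the genome. The 5 probes over 3 belonged to SUC2, FBP1, JEN1, MLS1 and SNF1, and each was dim in Cy3, with raw values of 1141 to 3368. Choosing probes by a high ratio favours low Cy3, so their dimness is not a separate result. These values lay above the median Cy3 background of 59 and 57 on replicates 1 and 2.

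Gene by gene, the upstream mean passed above 0 in all 10 members and the difference was above 0 in all 10 (limma, adjusted p of at most 0.000122 and 0.000316). Of all genes 76.8% passed above 0 upstream, 19.9% below, and for the difference 77.9% above and 18.8% below, so most genes share this direction. In coding sequence 3 members passed above 0 (FBP1, CAT8 and SNF1), 5 below and 2 were not called (ICL1 and JEN1), next to 38.3% and 55.6% of genes. After normexp 1 coding mean of members passed above 0, and that of SNF1 turned to -0.18. The share of all genes after normexp is not given here. Upstream, 5 of the 10 members (50%) exceeded the median gene, the share that lies above a median in all genes. They were CAT8, FBP1, JEN1, MLS1 and SUC2. The median over members was 0.91 ± 0.021 upstream (SD, n = 2 arrays), with 0.83 for all genes, and -0.032 ± 0.0070 in coding sequence, with -0.082 for all genes. The median difference was 1.11 ± 0.023 in members and 0.92 in all genes.

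Over whole upstream regions the order of the upstream means, high to low, was FBP1, MLS1, CAT8, JEN1, SUC2, PCK1, ADR1, ICL1, SNF1 and ADH2. Neighbours in this order did not all differ beyond their spread, since PCK1 and ADR1 both lay at 0.76. With saturated probes left out JEN1 (1.47) stood above CAT8 (1.12) and SUC2 (1.05), so the places of JEN1 and CAT8 rest on saturated probes. The order also sets genes with 2 to 8 upstream probes side by side. Members had long upstream regions, with a median of 4 probes, against 2 for all genes, and 7 of them had 4 or more, as did 18.8% of genes. The 974 genes with 4 or more had a median upstream mean of 0.70.

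**Figure D2:**
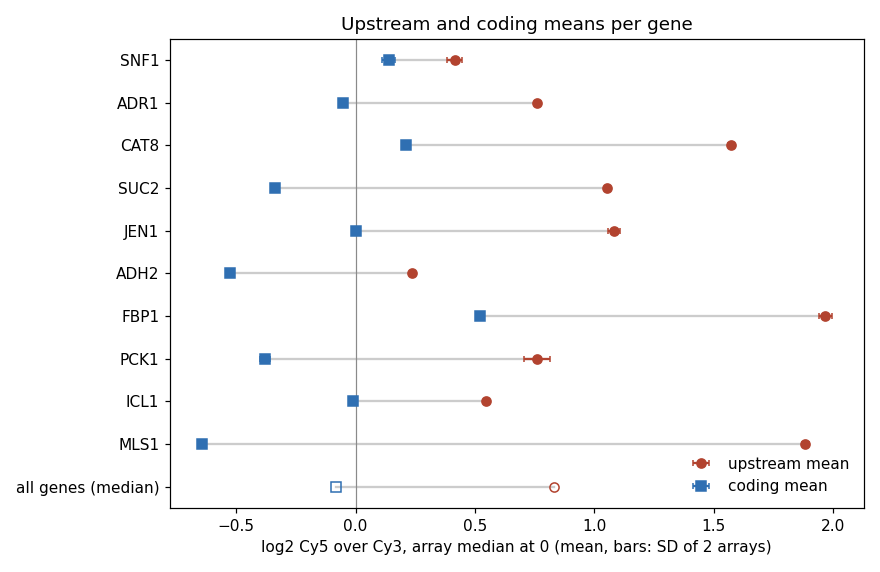
Upstream (red circles) and coding (blue squares) mean log2 Cy5 over Cy3 of each gene on the x axis, with bars for the SD of 2 arrays and open symbols for the medians of all genes. Every upstream mean lies right of its coding mean, MLS1 has the widest gap at 2.53 and SNF1 the narrowest at 0.28.

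A common shape within the upstream regions was noticed after the values were seen and is given as a description without a test. In 8 members neither the nearest nor the second upstream probe was saturated. In all 8 the second read higher than the nearest on both arrays, next to 51.8% of 2788 genes with such a pair. Among those with 4 or more upstream probes it was 5 of 5 members and 55.0% of 838 genes. The second probe minus the nearest had a median of 2.02 in the 8 members and 0.15 in these genes. It exceeded 2 in MLS1, SNF1, ICL1 and FBP1, which is 4 of 8 members, and in 17.8% of genes.

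In the medians, both ends of this contrast were away from the genes with unsaturated pairs. Second probes had a median of 2.47 in the 8 members and 0.66 in genes with unsaturated pairs, and nearest probes 0.0084 in members and 0.56 in genes. The nearest probe was below 0 in 4 of the 8 (ADH2, MLS1, ADR1 and SNF1) and in 33.4% of genes. Positions were not matched: the nearest probe lay at a median of 176 bp from the start in members and 137 bp in genes. Second minus nearest was 4.26 ± 0.015 at MLS1, 3.94 ± 0.13 at SNF1, 2.56 ± 0.065 at ICL1, 2.06 ± 0.011 at FBP1 and 1.99 ± 0.024 at SUC2 (SD, n = 2 arrays). It was small at ADH2 (0.62 ± 0.074), ADR1 (0.49 ± 0.0043) and PCK1 (0.48 ± 0.10).

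The other 2 members had a saturated nearest probe. At JEN1 it was saturated in both channels, so the second probe, at 3.32 in the mean, has no nearest value to be set against. At CAT8 the nearest probe was at least 2.94 and the second 0.48, so CAT8 ran the other way by at least 2.47. With saturated probes at their recorded values the count was 9 of 10 members, next to 52.0% of 3139 genes. On that basis 7 of 10 members showed the shape after normexp, next to 50.1% of genes, since ADH2 turned and SUC2 no longer showed it on both arrays. The 7 include JEN1, and both members that lost the shape are among the 8 with unsaturated pairs. At ADH2 and SUC2 the pair holds a probe with raw Cy3 of at most 2899, and after normexp SUC2 at 366 bp read 2.65 with an SD of 1.37 between arrays. The pairs of SNF1, PCK1 and MLS1 also hold such a probe and kept the shape. Whether dim Cy3 played a part was not tested.

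**Figure D3:**
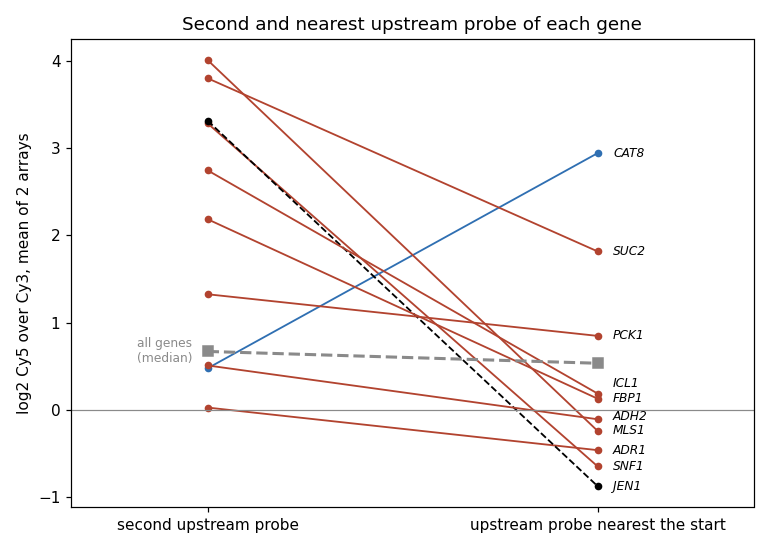
Mean log2 Cy5 over Cy3 of 2 arrays (y axis) at the second upstream probe (left) and the nearest one (right) of each gene, joined by a line, with grey squares for the medians of all genes and a dashed black line for JEN1, whose nearest probe was saturated in both channels and has no defined ratio. Lines fall to the right for the 8 genes with unsaturated pairs and climb for CAT8, whose nearest probe is a lower bound, while the medians of all genes lie at 0.67 and 0.53.

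Divergent neighbours use the same upstream probes, so the shared regions were also read against the other gene. DCP2, an mRNA decapping subunit, shares both probes of MLS1, had a coding mean of 0.18 beside -0.64 in MLS1, and a difference of 1.70. GPI12, an enzyme of glycolipid anchor synthesis, had 0.73 beside 0.21 in CAT8, and a difference of 0.84. UBP15, a ubiquitin protease gene, had -0.14 beside -0.53 in ADH2, and a difference of 0.38. The member's coding mean was the lower in these pairs. It was also lower for SUC2, at -0.34 beside -0.19 in NIT1, and for ICL1, at -0.013 beside 0.89 in RRT13, whose difference was -1.04. SNF1 was the exception, with 0.14 beside -0.050 in YDR476C. These comparisons of neighbours were not tested.

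Other genes of the pathway were read from 4 lists, chosen by function. Of 18 genes of repression and the Snf1 pathway, 16 had upstream probes, 14 of them above 0 and 2 below, with a median of 0.81, next to 76.8% above and 19.9% below of all genes and their median of 0.83. HXK2, the hexokinase that also takes part in repression, was highest at 2.32 ± 0.13, or 1.76 without the 1 of its 3 probes that was saturated in Cy5. NRG2, a repressor gene, followed at 1.72 ± 0.020, and within 500 bp stood at 0.12. The lowest were 2 genes of kinases that activate Snf1, ELM1 at -0.95 ± 0.0019 and SAK1 at -0.77 ± 0.016 (SD, n = 2 arrays). After normexp SAK1 no longer passed (-0.11, limma, adjusted p = 0.721). In 13 genes the upstream mean exceeded the coding mean and in 3 it was lower. MIG1 itself stood at 0.25 upstream and -0.11 in coding sequence, and TUP1 and CYC8, the corepressor genes, at 0.90 and 0.85 upstream.

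Of 25 genes of the Cat8 and Adr1 regulon and of related pathways, 20 passed above 0 upstream, 4 below and 1 (YAT1) was not called, with a median of 0.95. YAT2, a carnitine acetyltransferase gene, was highest at 2.77 ± 0.019, and POX1, the acyl-CoA oxidase gene, stood at 2.44 ± 0.016. ADY2, an acetate transporter gene, at -0.65 ± 0.041 and CAT2, another carnitine acetyltransferase gene, at -0.54 ± 0.062 were lowest (SD, n = 2 arrays). After normexp CAT2 turned to 0.18 and ADY2 no longer passed (-0.29, limma, adjusted p = 0.119). The difference was above 0 in 19, below in 5 and not called in 1 (CRC1), with a median of 1.06. These shares are near the 76.8% and 77.9% of all genes.

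Maltose and other sugar genes had fewer and shared probes. Of 9 listed, 6 were measured upstream, 3 above 0 and 3 below, next to 76.8% above and 19.9% below of all genes. The median was 0.28, next to 0.83 over all genes. Counts and median take the probes shared by MAL11 and MAL12, and by MAL13 and IMA1, more than once. MAL33, a regulator gene, read at least 3.05 on 1 shared probe, saturated in Cy5 on both arrays, and MAL13 and IMA1 read 0.75 ± 0.013 on the same 6 probes. MAL31 stood at -0.32 ± 0.035 (-0.76 after normexp, -0.20 after loess), and MAL11 and MAL12 at -0.20 ± 0.013 on the same probe (SD, n = 2 arrays). Within 500 bp IMA1 turned to -0.22. These families have close copies, and binding of other copies to their probes was not tested.

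Of 9 fermentation genes and paralogs of members, 7 passed above 0 upstream and 2 below, with a median of 0.82, close to the 76.8% and 19.9% of all genes. TDH3, a glycolytic dehydrogenase gene, stood at 2.53 ± 0.017 and PYC1, a pyruvate carboxylase gene, at 1.65 ± 0.11. DAL7, the malate synthase paralog of MLS1, stood at -0.14 ± 0.0057 and ADH4 at -0.097 ± 0.014 (SD, n = 2 arrays). After normexp DAL7 turned to 0.73 and ADH4 no longer passed (-0.12, limma, adjusted p = 0.446). The difference was above 0 in 6 and below in 3, among them PGK1 at -0.15.

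**Figure D4:**
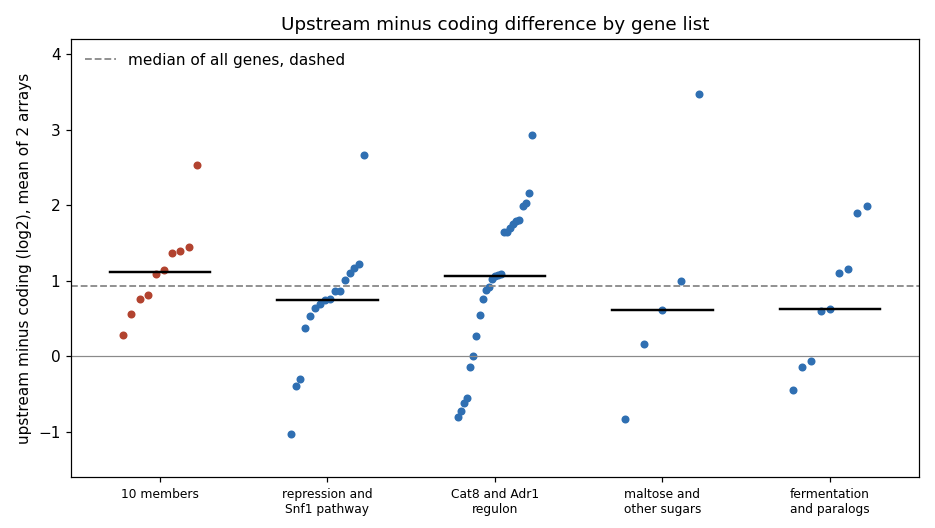
Upstream minus coding difference (log2, mean of 2 arrays, y axis) of each gene in the 10 members (red) and in 4 pathway lists (blue), with black bars at the medians and a dashed line at the median of all genes, 0.92. The members range over 0.28 to 2.53 and overlap all 4 lists.

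The genes nearest to SUC2 and ADH2 in the pair of upstream and coding means were found among 2492 genes with at least 2 upstream and 3 coding probes. Nearest to SUC2 was AIT1 (listed on the array as YDL180W), with 1.07 upstream and -0.34 in coding sequence, a distance of 0.015 on the log2 scale. PSK2 (distance 0.020) and ORC1 (0.031) followed. Nearest to ADH2 was MOD5 with 0.24 and -0.53 (0.0075), followed by RGA1 (0.024) and POL1 (0.025). The closeness is in these 2 means on 2 arrays and leaves out the shape along the region.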

How the data were processed

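Nucleosomal DNA carried Cy5 and genomic DNA Cy3 on each of the 2 arrays, so dyes were not swapped and their mean keeps any dye bias. The deposited scanner files hold spot intensity, raw and processed. Processing subtracted background, detrended and scaled each channel by a dye factor in Agilent Feature Extraction 9.1.3.1, per the file headers. The log10 ratio in the deposited files, per the file headers processed Cy5 over Cy3, was read but not used. A deposited log2 table equalled the uncentred processed ratio to within 5.00e-06. DNA was linearly amplified before labelling, per the labels' protocols.

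From processed intensities, log2 Cy5 over Cy3 was centred on each array's median (-0.13 on both). Of 41775 probes, 174 with non-uniform spots and 147 with dim Cy3 were left out. Saturated spots stayed. Probe coordinates are those of the array, counted from 1. The sources used here do not name their build, and the R64 gene table served only for names (5632 of 5653 matched) and gene order. Each start codon was put midway between its nearest upstream and coding probe, so distances are uncertain by 66 to 217 bp at the members.

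Probes, gene means and differences were tested against 0, two-sided, by an intercept model in limma 3.58.1 under R 4.3.3 (lmFit and eBayes), with 1 residual degree of freedom, over all probes or genes, adjusted by Benjamini-Hochberg, at a threshold of 0.05. The fit was tested on simulated data. Alternatives were normexp (offset 50), loess, the uncentred table, no filter, saturated or shared probes left out, windows of 500 and 250 bp, and each array alone. The genes named were all members, the 2 highest and 2 lowest upstream of each list, and the 3 genes nearest to SUC2 and ADH2. YAT1, CRC1, MIG1, TUP1, CYC8, PGK1, ADH1 and the divergent neighbours were chosen after their values were seen. The members and lists were chosen with earlier results of these data known. Motifs in promoters, planned for the members, were not analysed here. The rest ran in Python 3.11.15, numpy 2.4.6 and pandas 2.3.3, with figures from matplotlib 3.10.9.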

Additional observations from a re-analysis of the deposited data

How the results depend on the processing

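The number of arrays, dim Cy3 and saturated spots limit the precision. No paired analysis was possible because both arrays form 1 group, with no second group to pair with. Without the filter on probes no result of the members turned or crossed the threshold. On single arrays, which allow no test, JEN1 alone turned among gene means, in coding sequence (-0.00029 on replicate 1), where it had not passed. The list results and the contrast of the second and the nearest probe were recomputed under alternatives chosen after seeing the data. The causes of the changes below were not tested, except where fewer probes or genes are named.

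The upstream window mattered most. Within 250 bp 5 members were above 0 upstream and 5 below, with a median of 0.0084, and for the difference 6 above and 4 below, with a median of 0.30. Each region then rests on its nearest probes. Over 3139 genes with 2 or more upstream probes, the nearest probe was below 0 in 34.1%. Shares of all genes within 250 or 500 bp are not given here. Upstream ADH2 turned to -0.11, MLS1 to -0.24, JEN1 to -0.88 (its saturated probe), ADR1 to -0.46 and SNF1 to -0.65. The difference turned to -0.40 at FBP1, -0.88 at JEN1, -0.41 at ADR1 and -0.79 at SNF1. Within 500 bp 1 member, ADR1, was below 0 upstream (-0.22) and in the difference (-0.17), the medians were 1.27 and 1.34, and IMA1 turned to -0.22. Without divergent promoter probes 6 members were measured upstream, all above 0 in mean and in difference (6 of 6). The share of all genes above 0 without those probes is not given here either.

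The upstream median was 0.86 after normexp, 0.68 after loess, 0.78 uncentred, and 0.90 and 0.93 on single arrays. The coding median was -0.25 after normexp, -0.076 after loess, -0.16 uncentred and -0.012 without saturated probes. The median difference was 1.23 after normexp, 0.91 after loess and 1.01 without saturated probes. After normexp 15 coding probes and 1 coding mean of members were above 0, beside 26 and 3 in the reported values. Whether counts over all genes moved alike is not given here. The coding mean of ICL1 turned to 0.14 after loess and 0.11 without saturated probes, that of JEN1 to -0.025 after normexp, -0.14 after loess and -0.13 uncentred, and that of SNF1 to -0.18 after normexp. CAT2 and DAL7 turned upstream after normexp (0.18 and 0.73).

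Under the alternatives 67 of the 120 kept member probes were followed singly, numbered from the start codon. These were all 47 upstream probes and only part of the coding probes. Changes of the other coding probes are not given here. Among the 67, upstream probe 2 of ADR1 turned to -0.096 after normexp, -0.11 after loess and -0.10 uncentred. Loess turned SUC2 upstream probes 3 and 6 (-0.19 and 0.073), ICL1 upstream probes 1 and 7 (-0.26 and -0.16), FBP1 upstream probe 1 (-0.13), PCK1 upstream probe 3 (-0.28), PCK1 coding probe 5 (-0.037) and ADH2 coding probe 2 (0.11). Uncentred values turned FBP1 upstream probe 1 (-0.00085), PCK1 upstream probe 3 (-0.019) and PCK1 coding probe 5 (-0.035). Normexp turned ICL1 upstream probe 4 (0.55), ADH2 upstream probe 1 (1.47), JEN1 coding probe 6 (-0.10), SUC2 coding probe 4 (-0.0082), and PCK1 coding probes 5 (-0.0086) and 2 (0.19).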

Other observations

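One probe lay past the end of a member: downstream of ADR1 (chromosome 4, 898972 to 899029) the ratio was -0.38 and -0.37 on replicates 1 and 2, below the array median like the last coding probe of that gene at -0.62 and -0.64.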
